A study of Mus musculus with 36 samples.

Results

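The genes described here are 9 transcription factors of mouse trophoblast, Cdx2, Tead4, Elf5, Ets2, Tfap2a, Hand1, Ascl2, Gcm1 and Dlx3, together with the placental marker Plac1. These 10 genes were chosen by name for their known roles and not by a threshold on measured values, and each of them matched 1 identifier in the deposited tables, which list 50600 genes in the libraries of sorted Day 3 cells and 29267 genes in the other libraries. Their levels were read in all 11 bulk RNA-seq libraries, first in Day 3 c-Kit- against c-Kit+ cells, then in EpiSCs, in BV+SC+ cells and in Day 3 cells with and without SGC0946. Earlier results of these data were known when the genes were chosen, and the study itself reports Plac1 as high in c-Kit- cells.

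The trophectoderm is the outer layer of the blastocyst, and the trophoblast of the placenta descends from it. TEAD4, bound to DNA with the co-activators YAP or TAZ, acts upstream of Cdx2 in the trophectoderm, and CDX2, ELF5 and ETS2 keep trophoblast stem cells dividing. HAND1 acts in giant cells, ASCL2 in the ectoplacental cone and spongiotrophoblast, and GCM1 and DLX3 in the labyrinth, where nutrients are exchanged. None of these factors belongs to trophoblast alone, since Cdx2 is also a gene of the posterior embryo, Hand1 of extra-embryonic mesoderm and heart, and Tfap2a of surface ectoderm and neural crest.

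EpiSCs are mouse epiblast stem cells in the primed state of pluripotency, kept with Activin A, bFGF and XAV939, and they were sequenced in 3 libraries. In the BMP4 induced primed to naïve transition (BiPNT), EpiSCs are cultured for 3 days in iCD1 medium, which holds Vitamin C, bFGF, LiCl, LIF and CHIR99021, with BMP4, the EZH2 inhibitor EPZ6438 and a DOT1L inhibitor, EPZ5676 or SGC0946. Day 3 cells were sorted on c-Kit, a receptor tyrosine kinase of germ cells and other cells, into c-Kit- cells (2 libraries) and c-Kit+ cells (2 libraries), and the sources used here do not say which DOT1L inhibitor those cells received. BV+SC+ cells are Day 6 cells sorted for reporters of Blimp1 (Prdm1) and Stella (Dppa3) after the switch to the next stage of culture. Their 2 libraries carry different codes in the labels, 2iJi and GK15. In the study GK15 is a culture condition tried at that stage, and a JAK inhibitor was added there in another experiment. The 2 libraries may therefore come from different media, which the labels do not state, and their SD and tests may include such a difference. The D3 +SGC and D3 -SGC libraries (1 each) are Day 3 cells that the titles give as with and without SGC0946. The study describes them as with and without a DOT1L inhibitor, SGC0946, although the protocol text that their labels share names EPZ5676 and EPZ6438. Nothing in the labels says that libraries of a condition come from separate cultures, so the p-values measure only the spread between these libraries. Depth is given as the total of expected counts, RSEM's estimate of the reads of each gene. It was 1826460 and 1798944 in the c-Kit- libraries, 1726038 and 1841442 in the c-Kit+ libraries, 3070115, 2970222 and 2444211 in EpiSCs, 14778809 and 18099059 for BV+SC+, 4776143 for D3 +SGC and 4577685 for D3 -SGC. In the sorted libraries mitochondrial genes took 2.07% and 3.04% of counts in c-Kit- against 3.71% and 4.09% in c-Kit+ cells, and the part of this difference in the results was not tested.

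Marker genes followed the sort gates. Kit, which encodes the sorted receptor, was at 4.81 and 3.24 TPM (RSEM's level of a transcript, corrected for gene length and library size) in c-Kit- cells and at 99.6 and 96.0 TPM in c-Kit+ cells. Prdm1 was at 128 TPM in both BV+SC+ libraries and at no more than 0.54 TPM in EpiSCs, and Dppa3 was at 1162 and 1202 TPM in BV+SC+ cells and at 0 in EpiSCs. The D3 +SGC and D3 -SGC libraries are labelled as epiblast stem cells, but primed-state markers were low in them. Fgf5 was at 0.49 and 0 TPM and Otx2 at 1.00 and 0.78 TPM, where EpiSCs had 89.2 to 109 TPM of Fgf5 and 83.8 to 117 TPM of Otx2. The BV+SC+ libraries differed from each other, with a chi-square statistic of 45.3 per degree of freedom over their counts against 2.01 to 4.46 in the other replicate pairs. This statistic grows with depth and the BV+SC+ libraries were the deepest, so the values cannot be compared between pairs as spread. Since the labels of the BV+SC+ libraries also differ, the members' counts are given by library, and some other genes are given by library or without 1 of them.

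To see whether the trophoblast factors separate the sorted populations, the c-Kit- libraries were set against the c-Kit+ libraries. Plac1, Tead4, Hand1, Ascl2, Ets2 and Dlx3 were higher in c-Kit- cells by 4-fold or more, and Cdx2 was lower in them. Tfap2a was also lower in c-Kit- cells but did not pass the test, while Elf5 and Gcm1 had too few counts to be tested. Thus 8 of the 10 genes passed the filter on low counts, 6 of them were called higher in c-Kit- cells and 1 was called lower. Plac1 and Tead4 passed that filter only through the c-Kit- libraries and Tfap2a only through the c-Kit+ libraries, so a tested difference in these could only go 1 way. Calls took an adjusted p under 0.05 (Benjamini-Hochberg over all 11018 genes tested, edgeR's quasi-likelihood test) with more than a 2-fold change. Of all genes tested, 12.9% were called higher in c-Kit- cells and 9.98% lower, and the median log2 fold change over all of them was -0.03. These are RNA levels of whole populations, in which fewer cells of a type and less RNA per cell cannot be told apart.

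**Figure D1:**
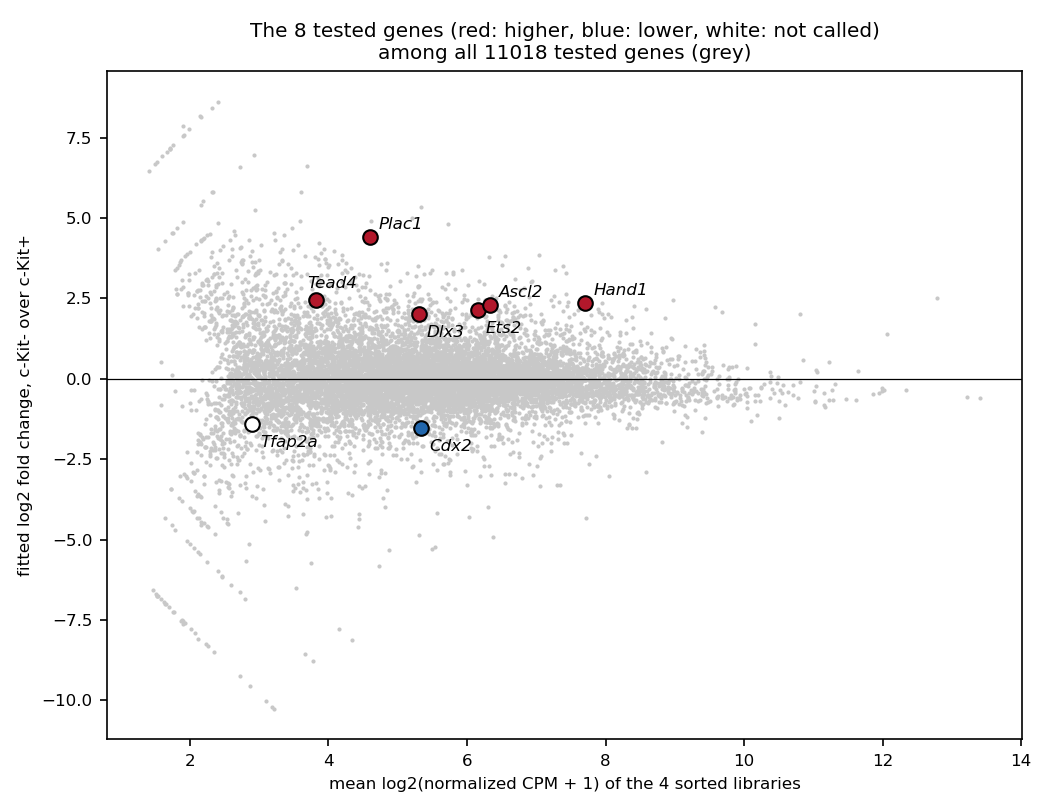
Fitted log2 fold change, c-Kit- over c-Kit+ (vertical axis), against the mean log2(normalized CPM + 1) of the 4 sorted libraries (horizontal axis), for all 11018 tested genes in grey and for the 8 tested trophoblast genes as large points (red, called higher in c-Kit- cells; blue, called lower; white, not called). Plac1 lies highest of the 8 at 4.40, and Hand1, at 2.35, is the most abundant. The sloping lines of grey points at the left are genes with few or no counts in one of the populations.

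Among factors of the trophectoderm and of trophoblast stem cells, Tead4 and Ets2 were higher in c-Kit- cells and Cdx2 was lower. Tead4 (chr6:128224288-128300823, coordinates here being GRCm38 with GENCODE M21 genes) had 55 and 60 counts in c-Kit- cells and 15 and 5 counts in c-Kit+ cells, so the populations did not overlap. Its log2 fold change was 2.44 ± 0.43 (SE, n = 2 and 2, edgeR's adjusted p = 0.00161). The size rests on few c-Kit+ counts, since the log2 fold change was 3.49 without the first c-Kit+ library and 1.85 without the second. Ets2 (chr16:95702075-95721051), an ETS factor needed for self-renewal, had 293 and 256 counts in c-Kit- cells against 78 and 41 in c-Kit+ cells. Both c-Kit- libraries were thus above both c-Kit+ libraries, by a log2 fold change of 2.13 ± 0.25 (SE, edgeR's adjusted p = 0.0001635), which was 2.74 without the first c-Kit+ library.

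Cdx2 (chr5:147300805-147307270) ran the other way. It had 56 and 30 counts in c-Kit- cells and 110 and 128 in c-Kit+ cells, which is 26.5 and 14.4 TPM against 51.5 and 55.7 TPM. Every c-Kit- library lay below every c-Kit+ library, and the log2 fold change was -1.53 ± 0.26 (SE, n = 2 and 2, edgeR's adjusted p = 0.001505). Cdx2 RNA was thus present in both populations, at 23.5 ± 9.59 normalized CPM (counts scaled to library size, SD, n = 2) in c-Kit- cells against 68.1 ± 4.42 in c-Kit+ cells.

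Elf5 (chr2:103411688-103450989), an ETS factor of trophoblast stem cells, had 6 and 6 counts in c-Kit- cells and 6 and 3 in c-Kit+ cells, and these ranges overlap. Its TPM of 7.56 and 2.92 in the c-Kit- libraries came from the same number of counts, because RSEM gave the gene an effective length of 818 bases in one and 2142 bases in the other. A difference in Elf5 was therefore not detectable at this depth.

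Tfap2a (chr13:40715302-40738376), which encodes the AP-2 alpha factor, had 6 and 9 counts in c-Kit- cells and 27 and 11 in c-Kit+ cells. The libraries did not overlap, and the log2 fold change was -1.40 ± 0.59 (SE), but the adjusted p of edgeR was 0.0807. Without the second c-Kit+ library the gene passed the test at -1.91, with an adjusted p of 0.0471 by edgeR, and without the first it was at -0.54. Over all alternatives tried, the adjusted p ranged from 0.0250 to 0.680.

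The bHLH factors of differentiated trophoblast were the most abundant of the 10 genes in c-Kit- cells. Hand1 (chr11:57828705-57832818), a factor of giant cells, had 971 and 757 counts in c-Kit- cells against 182 and 141 in c-Kit+ cells. In TPM this is 553 and 435 against 103 and 75.3, so Hand1 was well above 0 in c-Kit+ cells too, and the log2 fold change was 2.35 ± 0.17 (SE, n = 2 and 2, edgeR's adjusted p = 8.378e-06). Ascl2 (chr7:142966829-142969264), an imprinted factor of the ectoplacental cone, had 358 and 286 counts in c-Kit- cells and 69 and 57 in c-Kit+ cells. The c-Kit- libraries were the high ones again, with a log2 fold change of 2.28 ± 0.18 (SE, edgeR's adjusted p = 1.424e-05).

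Dlx3 (chr11:95120119-95125296), a homeobox factor of the labyrinth, had 136 and 148 counts in c-Kit- cells and 41 and 26 in c-Kit+ cells. It rose by a log2 fold change of 2.01 ± 0.25 (SE, n = 2 and 2, edgeR's adjusted p = 0.0002239), with no overlap between the populations. Gcm1 (chr9:78051924-78065624), the other labyrinth factor, had 1 and 2 counts in c-Kit- cells and 3 and 0 in c-Kit+ cells. Both populations were thus at or under a floor of 3 counts in each library, and no fold is given.

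Plac1 (chrX:53069995-53240111), which encodes a secreted or membrane protein of trophoblast, differed most among the 8 tested genes. It had 222 and 159 counts in c-Kit- cells and 11 and 6 in c-Kit+ cells, or 204 and 148 TPM against 10.0 and 5.92 TPM. The ratio of the mean normalized CPM was 21.2, from 104 ± 22.2 in c-Kit- cells to 4.92 ± 2.24 in c-Kit+ cells (SD, n = 2 and 2), and the log2 fold change was 4.40 ± 0.32 (SE, edgeR's adjusted p = 8.974e-06). With any 1 of the 4 libraries left out, it lay between 4.02 and 4.96.

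Upstream sequence is shown for Plac1, which rose most, for Ascl2, which rose with it, and for Cdx2, which fell. Each is the 200 bases before a start of the gene in RefSeq (GRCm38.p6), on the gene's strand, at chrX:53240111-53240310 for the outer of 2 Plac1 starts, chr7:142969265-142969464 for Ascl2 and chr5:147307250-147307449 for Cdx2, all on the minus strand. Capitals mark the letters of 7 motifs searched on both strands, and no matches overlap in these windows. The motif of TEAD factors was spelled GGAATG, that of CDX factors TTTATG, that of ETS factors CGGAAG and that of AP-2 factors GCCNNNGGC. The bHLH motif was CAGCTG, the GCM motif TGCGGG and the TATA box TATAAA.
Plac1: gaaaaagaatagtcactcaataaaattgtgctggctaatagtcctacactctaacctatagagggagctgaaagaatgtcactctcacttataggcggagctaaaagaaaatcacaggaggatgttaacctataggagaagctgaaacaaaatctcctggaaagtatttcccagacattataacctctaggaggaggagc
Ascl2: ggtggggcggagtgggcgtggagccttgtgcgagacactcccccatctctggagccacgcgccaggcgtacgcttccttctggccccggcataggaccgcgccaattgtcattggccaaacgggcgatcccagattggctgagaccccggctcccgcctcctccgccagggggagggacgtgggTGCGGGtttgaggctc
Cdx2: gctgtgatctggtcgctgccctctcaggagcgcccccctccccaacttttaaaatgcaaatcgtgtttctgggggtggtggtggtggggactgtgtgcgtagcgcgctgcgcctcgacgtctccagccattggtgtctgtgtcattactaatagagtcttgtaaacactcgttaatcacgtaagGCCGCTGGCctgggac
The Ascl2 window holds TGCGGG from 16 bases before the start, and such letters are in 9.54% of all 32851 RefSeq windows of this length. The Cdx2 window holds an AP-2 match, GCCGCTGGC, also from 16 bases before the start, and such a match is in 11.8% of all windows. The Plac1 window holds none of the 7 motifs, whose shares over all windows are 10.1% for TEAD, 8.51% for CDX, 12.1% for ETS, 10.9% for bHLH and 9.96% for the TATA box. G and C make up 40.0% of the Plac1 window, 68.5% of that of Ascl2 and 56.5% of that of Cdx2. A match is a description of the letters and not evidence of a bound site.

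**Figure D2:**
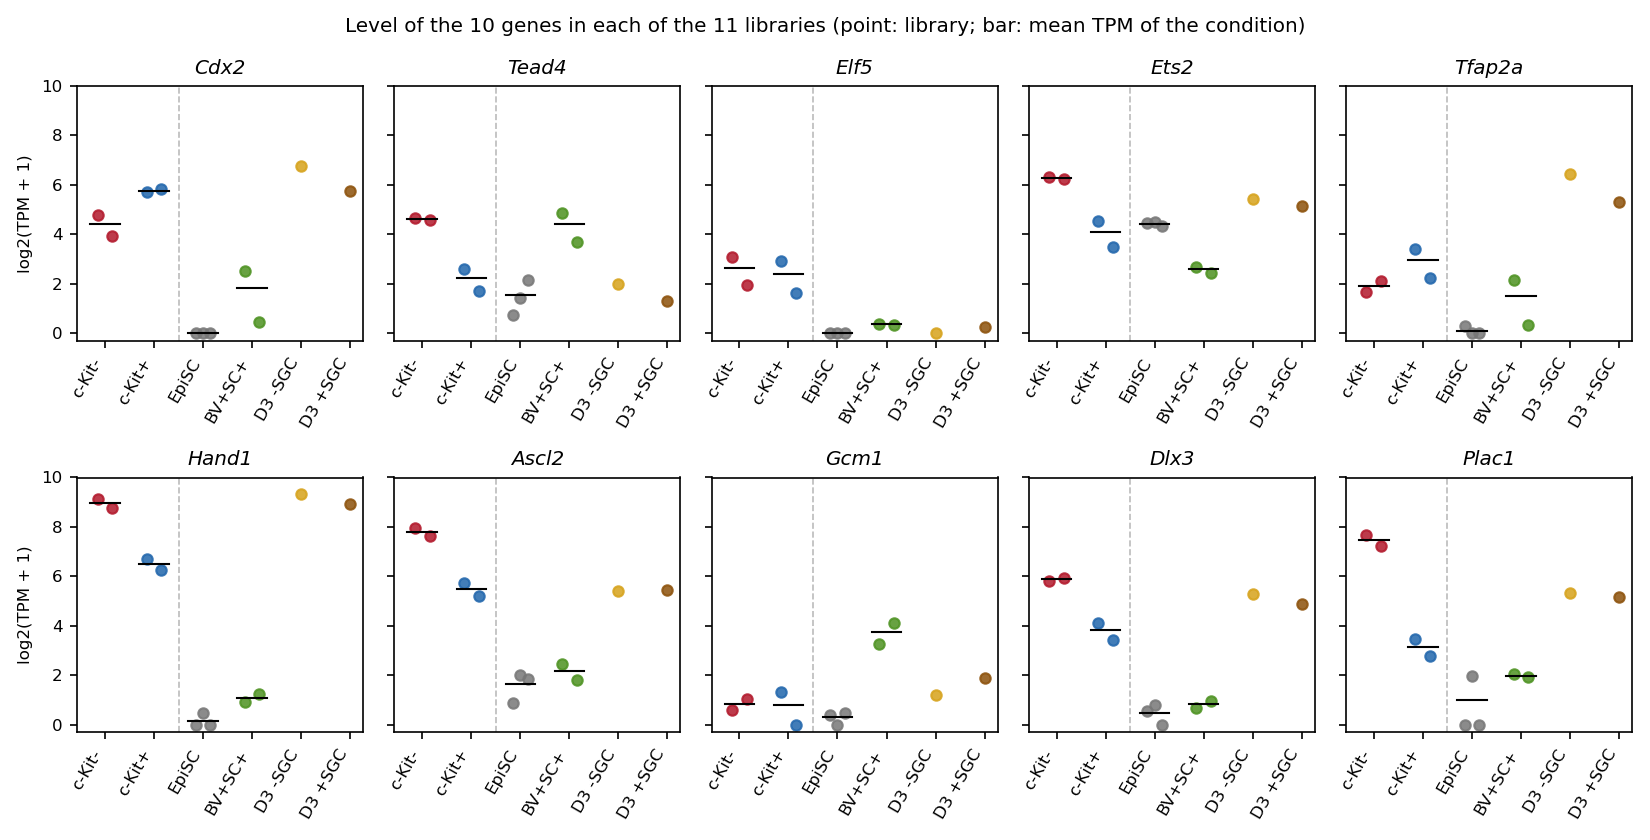
Level of each of the 10 genes as log2(TPM + 1) in each of the 11 libraries (points), by condition (horizontal axis), with a bar at the mean TPM of each condition that has replicates. The dashed line separates the 4 sorted libraries, which were quantified on another gene list and may differ in kit, from the other 7. Hand1, Ascl2, Dlx3, Plac1, Ets2 and Tead4 lie higher in c-Kit- than in c-Kit+ libraries, Cdx2 lies lower, and Gcm1 and Tead4 are the genes that stand out in BV+SC+ cells.

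Other trophoblast factors were split between the populations. All 16 listed were tested, of which 4 passed as higher in c-Kit- cells, 3 as lower and 9 as neither, with a median log2 fold change of -0.10. Gata2, a GATA factor of trophoblast, was at 437 and 386 TPM in c-Kit- cells and 59.5 and 24.3 TPM in c-Kit+ cells, and its log2 fold change was 3.52 ± 0.14 (SE, edgeR's adjusted p = 5.823e-07). Esx1, an X-linked homeobox gene of the labyrinth, rose by 2.26, Tead3 by 1.56 and Peg10, an imprinted gene of retrotransposon origin, by 1.40 on the log2 scale. Eomes, a T-box factor of trophoblast stem cells and also of the gastrulating embryo, fell by 3.46 ± 0.35 (SE, edgeR's adjusted p = 6.601e-05), from 19.6 and 17.4 TPM in c-Kit+ cells to 1.92 and 1.80 TPM in c-Kit- cells. Sox15, a SOX factor, fell by 1.44, and Sox21, at the floor in c-Kit- cells, was lower there by at least 5.59-fold. The call on Sox15 was lost with any 1 of the 4 libraries left out, and that on Sox21 without the first c-Kit+ library. Eomes, Sox15 and Sox21 passed the filter only through the c-Kit+ libraries, so they could be called lower only. Tfap2c, which encodes AP-2 gamma, was at 182 and 166 TPM in c-Kit- cells and 193 and 181 TPM in c-Kit+ cells and was not called.

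Among placental products most of the tested genes were higher in c-Kit- cells. Of 31 listed genes 19 were tested, and 12 of these rose in c-Kit- cells, 1, Pcsk6, fell, 6 were not called, and the median log2 fold change was 2.02. Krt7, Krt19, Rhox6, Rhox9 and Wnt7b passed the filter only through the c-Kit- libraries, so the count and the median are tilted upward. Krt7, a keratin of simple epithelia, rose at least 52.8-fold in c-Kit- cells, since c-Kit+ cells were at the floor. H19, an imprinted non-coding RNA, rose by 3.32 ± 0.57 and Krt19 by 3.31 ± 0.41 (SE) on the log2 scale. With 1 library left out H19 lay between 2.23 and 4.23. Rhox6, a placental homeobox gene at the floor in c-Kit+ cells, was at least 5.23-fold higher, a call lost without the second c-Kit+ library, while Wnt7b, a ligand of the chorion, rose by 3.07 and Rhox9 by 2.75, from 6 and 2 counts in c-Kit+ cells. The most abundant product was Igf2, an imprinted growth factor whose transcript shares 76.2% of its bases with another annotated gene, at 12049 and 12253 TPM in c-Kit- cells and 2284 and 1590 TPM in c-Kit+ cells. Furin and Slc16a3, a lactate transporter of syncytiotrophoblast, were also among the 12, Slc16a3 at 1.24. Tpbpa of spongiotrophoblast, Prl3d1, Prl2c2, Prl3b1, Prl8a9 and Ctsq of giant and spongiotrophoblast cells, the syncytins Syna and Synb, and Hsd3b6 had no count in any of the 4 sorted libraries. Pgf, Adm and Bmp8b were also under the filter, though Pgf and Adm were higher in c-Kit- cells without overlap, by at least 3.17-fold and 3.03-fold against the floor.

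Relatives of the 10 genes were mostly at low counts. Of 18 listed 7 were tested, and Elf3, an ETS factor of epithelia, and Tead3 were higher in c-Kit- cells, by 2.06 and 1.56 on the log2 scale, while none was lower. Cdx4, Hand2 and Gcm2 had no count in the sorted libraries, and Cdx1, Ehf, Tfap2b, Dlx1, Dlx4, Dlx5 and Dlx6 were among the others under the filter. Dlx5 was at 0 in c-Kit- cells and at 10.6 and 7.06 TPM in c-Kit+ cells. Among 8 genes of the Hippo pathway, which controls the partners of TEAD factors, Wwtr1 (TAZ) rose by 2.23 ± 0.14 (SE, edgeR's adjusted p = 5.228e-06) and the other 7 were not called. Amot (-0.99), Yap1 (-0.84) and Amotl2 (0.81) had adjusted p-values of 0.000204, 0.00103 and 0.000605 by edgeR but log2 fold changes short of 2-fold.

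Marker genes of other lineages moved as well. Pluripotency genes fell in c-Kit- cells, with Pou5f1 at 73.9 and 62.7 TPM in c-Kit- against 1226 and 1291 TPM in c-Kit+ cells, while Sox2 fell at least 152-fold and Nanog at least 92.0-fold. All 3 tested germ cell markers fell too, Prdm1 by 4.77 on the log2 scale, Dppa3 at least 19.1-fold and Nanos3 at least 15.4-fold, and Prdm14 was under the filter. Without the first c-Kit- library Prdm1 was at -3.95. These 3 markers passed the filter only through the c-Kit+ libraries, as did Sox2 and Nanog, so they could be called lower only. Of the primed-state markers Otx2 fell at least 8.76-fold, Dnmt3b was not called and Fgf5 was under the filter. Of 6 markers of surface ectoderm 4 were tested, Krt5 rose by 3.93 on the log2 scale, Wnt10b rose at least 11.4-fold, and Trp63 and Grhl3 were not called. Their summed level was 111 and 64.4 TPM in c-Kit- cells, with Krt5 the most abundant at 63.5 and 32.2 TPM, against 33.3 and 32.0 TPM in c-Kit+ cells, and Tfap2b and Krt14 were under the filter. Of 10 markers of amnion and extra-embryonic mesoderm 4 were tested. Ahnak, which the study counts as a trophoblast gene, rose by 2.02, Wnt6 rose by 1.55, Igfbp3 fell by 2.01 on the log2 scale and Bmp4 was not called. This list summed to 278 and 271 TPM in c-Kit- and 154 and 133 TPM in c-Kit+ cells, led in c-Kit- cells by Wnt6 at 197 and 184 TPM. Foxf1 had no count in the 4 libraries, and Isl1, Tbx4, Hoxa13, Postn and Gata6 were under the filter. Among them Gata6, Tbx4 and Hoxa13 were higher in c-Kit+ cells without overlap, by at least 3.81-fold, 2.67-fold and 1.93-fold against the floor. Tbx4 reached only 0.66 TPM in the second c-Kit+ library. Isl1 and Postn were at the floor in both populations. Of 7 mesoderm markers T fell at least 78.2-fold and Pdgfra rose at least 5.89-fold in c-Kit- cells, and of 7 endoderm markers Sox17 rose by 3.02 and Dab2 fell by 2.00 on the log2 scale, the remaining 5 of each list being under the filter. Krt5, Wnt10b, Pdgfra and Sox17 passed the filter only through the c-Kit- libraries, and Otx2, T and Dab2 only through the c-Kit+ libraries. Each of these genes could therefore be called in 1 direction only. Without the second c-Kit+ library the call on Pdgfra was lost, and that on Dab2 was lost with 3 of the 4 libraries left out in turn. Without the first c-Kit+ library Krt5 was at 4.56, and Sox17 was at 2.25 without the second, while without the first its c-Kit+ level was at the floor. The part of such cells in the levels of Hand1, Tfap2a or Cdx2, which they also express, was not tested.

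**Figure D3:**
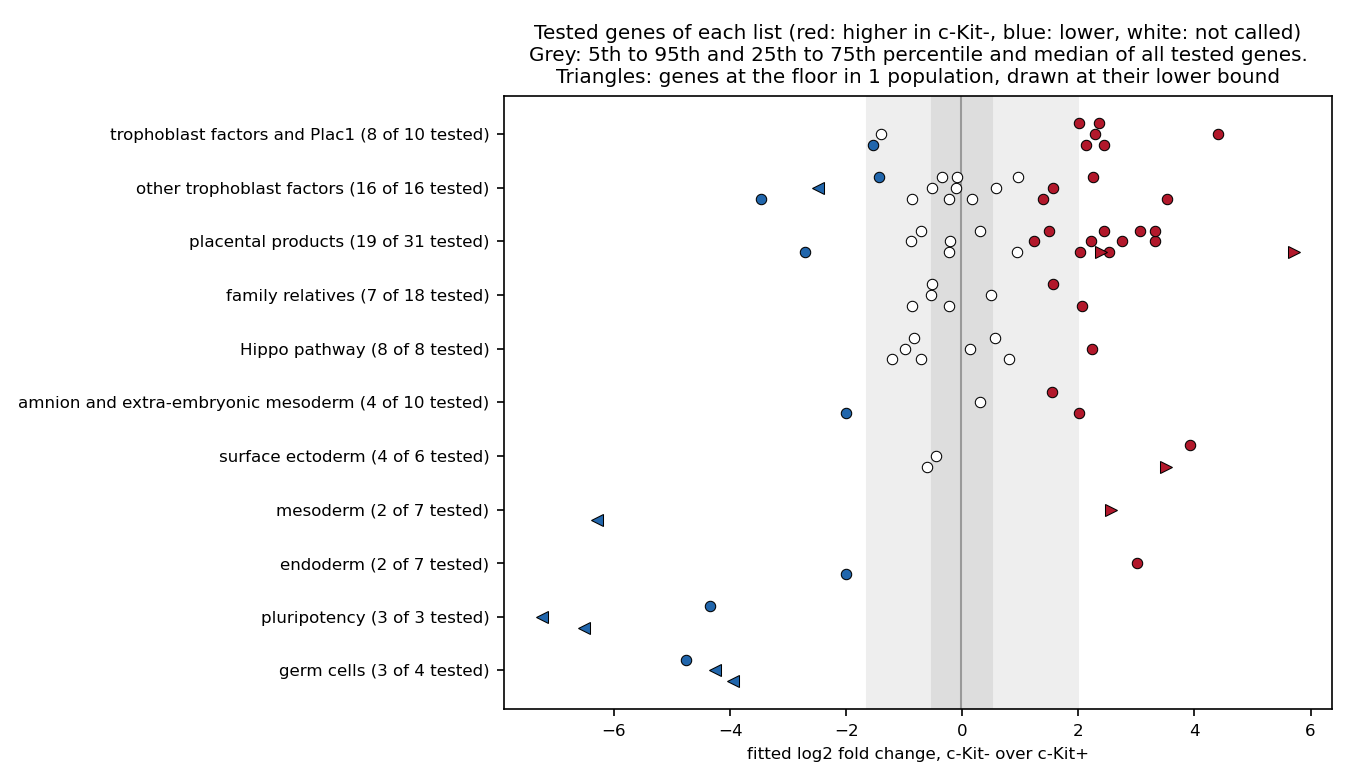
Fitted log2 fold change, c-Kit- over c-Kit+, of every tested gene of each list (red, called higher in c-Kit- cells; blue, called lower; white, not called). Triangles are genes at the floor in 1 population, drawn at their lower bound, and the grey bands and line give the 5th to 95th and 25th to 75th percentiles and the median of all tested genes. Most of the 8 tested genes of the 10 lie at 2 or above, and the pluripotency genes lie below -4. The median is 2.02 for the placental products and -0.10 for the other trophoblast factors.

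Across the 6 conditions the 10 genes together held 1203 and 957.8 TPM in c-Kit- cells, 278 and 201 TPM in c-Kit+ cells, 23.5, 30.3 and 25.9 TPM in EpiSCs, 60.6 and 41.4 TPM in BV+SC+ cells, 995 TPM in D3 -SGC and 729 TPM in D3 +SGC. Levels of the sorted and the other libraries are set side by side and not tested, since those libraries may differ in kit and were quantified on different gene lists. By mean TPM, Hand1 was highest in D3 -SGC (636), then in c-Kit- cells (494) and D3 +SGC (493), whose ranges overlap, then in c-Kit+ cells (89.2), BV+SC+ cells (1.12) and EpiSCs (0.127). Over the genes of both lists, Hand1 in c-Kit- cells (627) overlapped D3 -SGC (639) and not D3 +SGC (494.5). Dlx3 ran from 58.3 TPM in c-Kit- cells through D3 -SGC (38.1), D3 +SGC (28.5) and c-Kit+ cells (13.2) to BV+SC+ cells (0.785) and EpiSCs (0.413), and only the last 2 conditions overlapped. Plac1 had the same order, 176, 38.9, 34.7, 7.96, 2.99 and 0.99 TPM, again with overlap only at the end.

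Ascl2 was at 223 TPM in c-Kit- cells, then at 43.9 in c-Kit+ cells, 42.3 in D3 +SGC and 41.5 in D3 -SGC, with the c-Kit+ range of 35.9 to 51.8 holding both of the others. Over the genes of both lists the c-Kit+ mean was 61.3 TPM, clear of D3 +SGC (42.5) and D3 -SGC (41.7). It was at 3.56 TPM in BV+SC+ cells and 2.18 TPM in EpiSCs, whose ranges overlap. Ets2 was found in every library and ran from 76.5 TPM in c-Kit- cells through D3 -SGC (42.8), D3 +SGC (34.1), EpiSCs (20.6) and c-Kit+ cells (16.2), which overlap, to BV+SC+ cells (5.01).

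Cdx2 and Tfap2a were both highest in D3 -SGC and lowest in EpiSCs, with different orders between. Cdx2 was at 108 TPM in D3 -SGC, 53.6 in c-Kit+ cells and 53.0 in D3 +SGC, which lies within the c-Kit+ range, then 20.4 in c-Kit- cells, 2.57 in BV+SC+ cells and 0 in all 3 EpiSC libraries. Over the genes that both gene lists hold, Cdx2 was at 74.97 TPM in c-Kit+ cells and 53.2 TPM in D3 +SGC, without overlap. Tfap2a was at 84.9 TPM in D3 -SGC and 39.1 TPM in D3 +SGC, above every sorted library, then at 6.77 in c-Kit+ cells, 2.80 in c-Kit- cells and 1.89 in BV+SC+ cells, with overlap between the last 2, and at 0.0733 in EpiSCs. Tead4 was highest in c-Kit- cells (23.5 TPM) and BV+SC+ cells (20.3 TPM), which overlap on the deposited scale but not over the genes of both lists (29.9 and 20.4 TPM), and at most 3.69 TPM in the other 4 conditions, where each overlaps its neighbour in the order on the deposited scale. Gcm1 was highest in BV+SC+ cells at 12.5 TPM and at 2.68 TPM or less elsewhere. Elf5 was at 5.24 TPM in c-Kit- cells against 4.36 TPM in c-Kit+ cells, from 3 to 6 counts a library, and at 0.31 TPM or less in the other libraries, from 0 to 2 counts.

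Genes with the most similar pattern were found by Pearson's r of log2(TPM + 1) over the 11 libraries, among 12239 protein-coding genes with at least 5 TPM in some library. These values are descriptions, since the libraries fall into 2 sets that differ in gene list and may differ in kit, and a gene that merely differs between the sets gives a high r. Hand1 was nearest to Dok4 (0.993), Dlx3 (0.988) and Igf2 (0.986). Dlx3 was nearest to Pdgfrb (0.989), Hand1 and Tnnt3 (0.987). For Ascl2 the nearest were Slc39a9 (0.985), Esx1 and Phlda2 (both 0.983), the last an imprinted placental gene. Plac1 was nearest to Frmpd1 (0.977), Akt2 and B3galt4 (both 0.976), and Ets2 to Col4a1 (0.989), Micall1 and Tmem129 (both 0.985). For Cdx2 the nearest were Nrp2, Gtf2ird2 (both 0.982) and Hoxd9 (0.975), and for Tfap2a Sema3a (0.986), Tceal9 (0.978) and Map2k2 (0.968). Tead4 was nearest to Aldh3a2 (0.954), Pou2f3 (0.942) and Lgals3 (0.941), and Gcm1 to Fntb (0.980), Fnbp1 (0.963) and Cldn5 (0.958). Elf5, which separates the 2 sets of libraries, was nearest to Uba1 (0.977), Fxyd3 (0.974) and Gm9008 (0.972).

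BV+SC+ cells were then compared with EpiSCs, that is, germ cell-like cells with primed cells, though the sources used here do not say that these EpiSC libraries are the line the BV+SC+ cells came from. Gcm1 and Tead4 were higher in BV+SC+ cells and Ets2 was lower, and the other 7 genes had too few counts for the test. Of 11792 genes tested, 16.8% were called higher in BV+SC+ cells and 17.2% lower, with a median log2 fold change of 0.05. Gcm1 had 140 and 311 counts in BV+SC+ cells and 1, 0 and 1 in EpiSCs. It was at least 12.5-fold higher in BV+SC+ cells, against the floor of 3 counts in each EpiSC library (edgeR's adjusted p = 0.0003282). Gcm1 and Tead4 passed the filter on low counts only through the BV+SC+ libraries, so they could be called in 1 direction only, and under a minimum of 10 counts for each library neither was tested. Tead4 had 612 and 341 counts in BV+SC+ cells and 2, 7 and 8 in EpiSCs, with no overlap in normalized CPM, which was 29.9 ± 14.9 (SD, n = 2) against 2.10 ± 1.33 (SD, n = 3). Its log2 fold change was 3.87 ± 0.53 (SE, edgeR's adjusted p = 0.0006023), and 3.25 without the 2iJi library. Ets2 had 121 and 167 counts in BV+SC+ cells and 133, 110 and 97 in the shallower EpiSC libraries, or 8.74 ± 1.05 against 40.2 ± 3.43 normalized CPM. The ratio of these means was 4.60, and the fall passed the test (edgeR's adjusted p = 0.0001069), with every BV+SC+ library below every EpiSC library.

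The 7 genes without a test were low in both populations, and the BV+SC+ libraries differed in some of them. Cdx2 had 86 counts in the 2iJi library and 8 in the GK15 library, and none in EpiSCs. Tfap2a had 84 and 7 counts in the same libraries and 1, 0 and 0 in EpiSCs. With no filter on low counts, or without the GK15 library, both genes were called higher in BV+SC+ cells, so that 4 members were called higher in place of 2. Hand1 had 13 and 23 counts, Dlx3 13 and 24, Ascl2 56 and 37, Plac1 25 and 29 and Elf5 2 and 2 in BV+SC+ cells, where 3 counts are 0.198 and 0.170 normalized CPM. In EpiSCs, where 3 counts are 0.990 to 1.23 normalized CPM, Hand1 had 0, 1 and 0 counts, Dlx3 2, 3 and 0, Ascl2 2, 7 and 5, Plac1 0, 4 and 0 and Elf5 none. Differences in these 5 genes were not detectable at the EpiSC depth, except that Plac1 was called higher without the second EpiSC library.

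**Figure D4:**
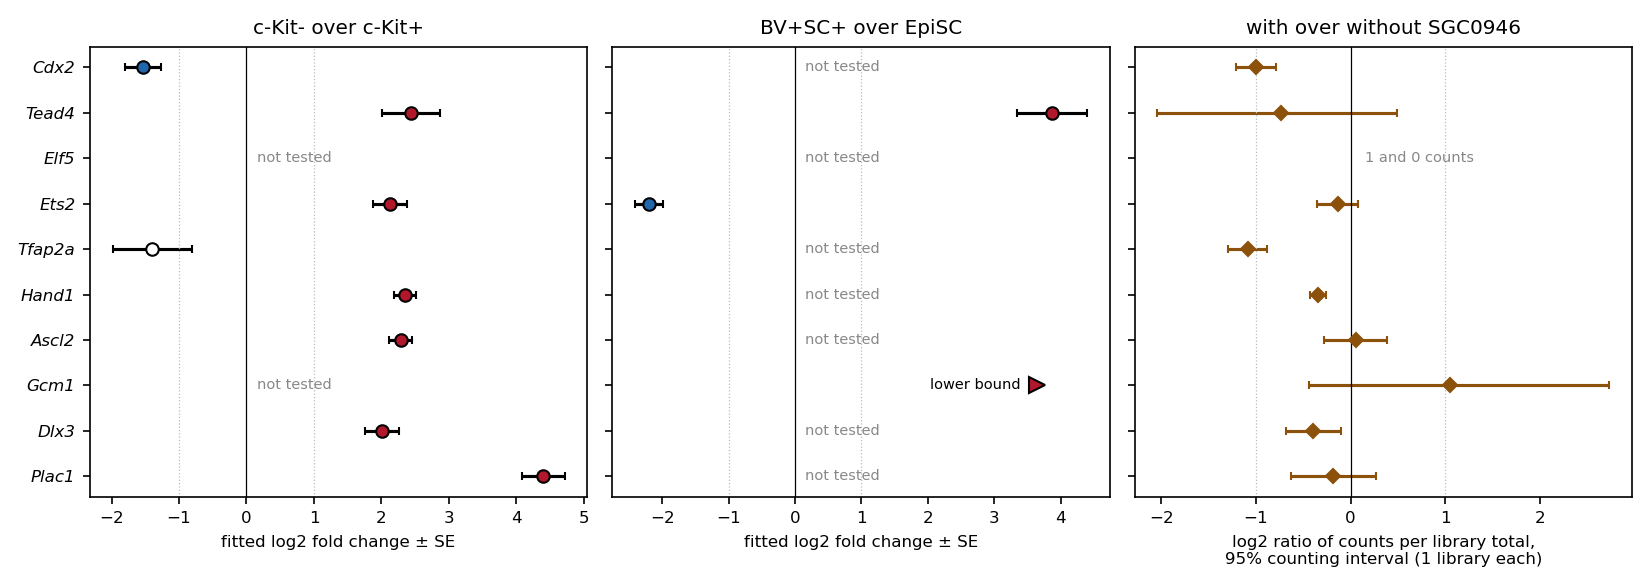
Left and middle, fitted log2 fold change with its SE for the tested genes in c-Kit- over c-Kit+ and in BV+SC+ over EpiSC (red, called higher; blue, called lower; white, not called; triangle, lower bound). Right, log2 ratio of counts per library total, with over without SGC0946, with its 95% exact counting interval. Ets2 and Cdx2 lie on opposite sides of 0 in the c-Kit comparison, and Cdx2 and Tfap2a are the lowest of the genes in the SGC0946 pair.

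In the other lists, 5 of the 12 tested trophoblast factors were higher in BV+SC+ cells and 1, Tead2, was lower. Tfap2c, Sox15, Gata2 and Msx2 were at the floor in EpiSCs and passed the filter only through the BV+SC+ libraries, so this count is tilted upward. Tfap2c, which is also a germ cell factor, was at least 276-fold, Sox15 at least 35.8-fold, Gata2 at least 16.1-fold and the homeobox gene Msx2 at least 8.37-fold higher, and Peg10 rose by 2.39 on the log2 scale. Without the 2iJi library Peg10 was at 1.40 and Tead2 at -3.63, against -2.28 with both libraries and -1.59 without the GK15 library. Gata2 was at 15.2 TPM in the 2iJi library and 4.16 TPM in the GK15 library. Of the 31 placental products 17 passed the filter, 12 of them were higher and 2, Slc16a3 and Flt1, were lower. Rhox6, Rhox9, Wnt7b and H19 were at the floor in EpiSCs and passed the filter only through the BV+SC+ libraries, so their count is tilted upward. Rhox6 was at least 123-fold and Rhox9 at least 109.9-fold higher, and Rhox6 was at 224 and 351 TPM in BV+SC+ cells. H19, at 5.48 and 22.6 TPM in the 2iJi and GK15 libraries, was at least 14.6-fold and Wnt7b, at 2.14 and 6.25 TPM, at least 7.38-fold higher by their means. Fgfr2, an FGF receptor of trophoblast stem cells, rose by 3.68 and Cdh3 by 3.28 on the log2 scale, with Cdh3 at 2.24 without the GK15 library and Fgfr2 at 4.43 without the first EpiSC library. Flt1 lay at -2.18, at -3.68 without the 2iJi library and at -1.45 without the GK15 library. The calls on Krt8 and Krt18, among the 12, were lost without the 2iJi library, where both were at 0.51, and without the second or the third EpiSC library, and that on Bmp4 was lost without the second EpiSC library. Among Hippo pathway genes Ccn2, a YAP target, was at least 34.3-fold higher, and Ccn1 fell by 3.88 (4.65 without the GK15 library, log2 scale), Amotl2 by 2.40 and Wwtr1 by 1.44. Of 6 relatives tested, Elf3, which rose by 5.30 on the log2 scale (5.95 without the second EpiSC library), and Tfap2c were higher and Tead2 was lower. Of the 4 tested markers of amnion and extra-embryonic mesoderm, Tbx4, at least 28.4-fold, and Bmp4, by 2.59 (3.26 without the first EpiSC library), were higher and Igfbp3 was lower. Grhl3, the 1 tested marker of surface ectoderm, rose by 4.75, none of the mesoderm markers was tested, and Dab2, the 1 tested of endoderm, was not called. Of the 3 primed-state markers, Fgf5 and Dnmt3b were lower in BV+SC+ cells and Otx2 was not called. Otx2 was at 4.29 TPM in the 2iJi library, 47.5 TPM in the GK15 library and 83.8 to 117 TPM in EpiSCs. Fgf5 passed the filter only through the EpiSC libraries, so it could be called lower only. All 4 germ cell markers, Prdm1, Dppa3, Prdm14 and Nanos3, were higher, and the cells were sorted on reporters of Prdm1 and Dppa3. These 4 markers passed the filter only through the BV+SC+ libraries, as did Elf3, Tfap2c, Ccn2, Tbx4, Bmp4 and Grhl3. Each of these genes could therefore be called in 1 direction only.

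Day 3 cells with and without SGC0946, an inhibitor of the H3K79 methyltransferase DOT1L, were sequenced in 1 library each, so there is no test and the intervals cover counting error only. Cdx2 and Tfap2a were past 2-fold lower with SGC0946, none of the 10 genes was past 2-fold higher on log2(TPM + 1), and the genes that were highest in c-Kit- cells were closer to equal. Among the 14038 genes with more than 1 TPM in either library, 6.33% were past 2-fold higher and 3.45% past 2-fold lower with SGC0946 on log2(TPM + 1), a scale that understates the change of low genes, and 9 of the 10 genes were among them. Tfap2a had 280 counts with and 570 without SGC0946, and the log2 ratio of TPM + 1 was -1.10. As a ratio of counts per library total it was -1.09 on the log2 scale (95% interval, exact, -1.30 to -0.88). Cdx2 had 289 counts with and 554 without, a log2 ratio of TPM + 1 of -1.01, just past the threshold, with an interval of -1.21 to -0.79 for the ratio of counts. On CPM in place of TPM it was -0.99, and Tfap2a alone was past 2-fold.

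Hand1 had 2212 counts with and 2693 without SGC0946, a log2 ratio of counts of -0.35 (-0.43 to -0.26), and Dlx3 had 182 and 229, a ratio of -0.39 (-0.68 to -0.11). Both were thus lower by more than counting error but by less than 2-fold. Ascl2 had 157 and 145 counts (0.05, -0.28 to 0.39), Plac1 81 and 88 (-0.18, -0.63 to 0.27) and Ets2 334 and 352 (-0.14, -0.36 to 0.08), so no difference was detectable in these at this depth. Tead4 had 10 and 16 counts (-0.74, -2.04 to 0.49) and Gcm1 13 and 6 (1.05, -0.44 to 2.74), with intervals on both sides of 0. Elf5 had 1 and 0 counts.

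Other trophoblast factors differed in the same pair of libraries. Eomes, at 20 and 2 counts, Tfap2c, at 105 and 35.5 TPM, and Sox15, at 19.1 and 3.68 TPM, were past 2-fold higher with SGC0946 and none of the 15 kept was past 2-fold lower. Gata3, a GATA factor of the trophectoderm, was at 28.0 TPM with and 54.4 TPM without, a log2 ratio of TPM + 1 of -0.93, and Gata2 was at 82.1 and 95.1 TPM. Of 20 placental products kept, Pcsk6 and Rhox9 were past 2-fold higher and Wnt7b past 2-fold lower. Igf2 was at 7044 TPM with and 11786 TPM without SGC0946. Pou5f1 was at 549 and 67.3 TPM and Nanog at 64.6 and 7.38 TPM in the same libraries, and markers of amnion and extra-embryonic mesoderm summed to 261 and 349 TPM, with Foxf1 and Gata6 past 2-fold lower and Isl1 at 127 and 154 counts, a log2 ratio of counts of -0.34 (-0.69 to 0.01) that is within counting error. Of 12 relatives kept, 1, Tfap2c, was past 2-fold higher and 2 were past 2-fold lower, among them Dlx1 at 3.34 and 10.4 TPM, while Dlx5 was at 84.9 and 73.9 TPM. On log2(TPM + 1) none of the 8 Hippo pathway genes was past 2-fold, but Ccn2 had 38 counts with and 7 without SGC0946, a log2 ratio of counts of 2.38 (1.20 to 3.79). Past 2-fold higher were also T of mesoderm, at 16.9 and 2.64 TPM, Grhl3 of surface ectoderm, Dab2 of endoderm, whose log2 ratio of counts was only 0.75 (0.30 to 1.21), and Dppa3 and Nanos3 of germ cells, the last at 24.7 and 1.54 TPM, and Gata4 of endoderm was past 2-fold lower, at 1 and 9 counts. Kit was at 119.6 TPM with and 102 TPM without SGC0946, and the part of these populations in the levels of Cdx2 and Tfap2a was not tested.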

How the data were processed

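The 11 bulk RNA-seq libraries were analysed, and the other 25 samples of the series were not analysed here. According to the methods, reads were aligned to GENCODE transcripts with Bowtie2 and quantified with RSEM, for which the submitters' processing notes give version 1.3.1 for the libraries other than the sorted ones. The authors deposited expected counts per gene, which are not normalized between libraries, and TPM, which RSEM computes from the expected counts and effective lengths. The methods name an mRNA kit for RNA-seq in general. The labels give total RNA without ribosomal RNA for the libraries other than the sorted ones, and 28910 genes are in both gene lists. Tests were therefore made within a set.

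Rounded expected counts were filtered with filterByExpr, scaled by TMM and fitted with glmQLFit and glmQLFTest (edgeR 4.0.16, R 4.3.3) in 2 models, c-Kit- with c-Kit+ and BV+SC+ with EpiSC. The threshold of the methods (P under 0.05, fold over 2) was applied to Benjamini-Hochberg adjusted p-values, with unadjusted ones as an alternative. The SE of a log2 fold change was derived from the quasi-likelihood F statistic. Groups with at most 3 counts in every library count as being at the floor, so a fold over them is a lower bound. For the SGC0946 pair, log2 ratios used TPM + 1, with exact conditional binomial (Clopper-Pearson) 95% intervals for counts per library total. Alternatives were DESeq2 1.42.0, RLE factors, other filters, a GC offset, the replicate block, each library left out, other pseudocounts and scalings. Symbols and coordinates come from GENCODE M21. BLAST+ 2.17.0 (at least 98% identity over at least 75 bases) found shared transcript sequence in 8.4% of Tfap2a and 4.9% of Gcm1 and in none of the other 8 genes. Lists other than the 10 genes were written from general knowledge. The values of 1 listed relative are not reported here. The genes, lists and tests were chosen with earlier results of these data known. Of each list at most 6 called genes a direction were to be named, in order of change, with those at 0 or not tested. Tfap2c, Igf2, Slc16a3, Furin, Yap1, Amot, Amotl2, Krt8, Krt18 and Bmp4 in BV+SC+ cells, Gata2 and Gata3 and Isl1 in the SGC0946 pair, and markers of other lineages that were not called, were named after their values were seen. The fits were checked on simulated data. Python 3.11.15 with NumPy 2.4.6, pandas 2.3.3, SciPy 1.17.1 and Matplotlib 3.10.9 was used for the rest.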

Additional observations from a re-analysis of the deposited data

How the results depend on the processing

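Each called gene of the 10 kept its direction and its call under every alternative in which it was tested, but the number called depended on filters and libraries. In the c-Kit comparison the number of members called lower in c-Kit- cells was 1, and 2 (Cdx2 and Tfap2a) with the GC offset, with unadjusted P or without the second c-Kit+ library (1 to 2 with a library left out). Members called higher stayed at 6 with any library left out and were 4 when at least 10 counts were required in every library, which leaves Tead4 and Plac1 untested. That filter reduced the genes called lower from 1100 to 706 and, in the BV+SC+ comparison, the genes called higher from 1983 to 1164 and the members called higher from 2 to 0. Members called higher in BV+SC+ cells were 4 with no filter and 2 to 4 with a library left out. In the SGC0946 pair 1 member was past 2-fold lower on CPM. With the replicate block, 1401 genes were higher and 1126 lower in c-Kit- cells, against 1418 and 1100, and 1872 and 1958 in BV+SC+ cells, against 1983 and 2028, and no call on the 10 genes changed. The labels do not say that the numbers pair libraries, though the deposited names of same-numbered sorted libraries carry the same date. The correlation of same-numbered deviations was 0.114 in the sorted libraries and -0.035 and 0.004 in the others. Where leaving out a library leaves 1 in a group, it is assumed to vary like the other group. On TPM over the genes of both lists, the order of conditions changed for 2 of the 10 genes (Ets2 and Gcm1). Overlaps ended there for Cdx2 and Ascl2 between c-Kit+ and D3 +SGC, for Hand1 between c-Kit- and D3 +SGC, for Tead4 between c-Kit- and BV+SC+ and between c-Kit+ and D3 -SGC, and a new one arose for Hand1 between c-Kit- and D3 -SGC. In the sorted libraries 3 counts are 1.62 to 1.77 normalized CPM, and lower levels could not be compared there.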
